A study of Mus musculus with 99 samples.

Results

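The 10 genes described here are 3 Notch receptors (Notch1, Notch2 and Notch3), 3 ligands (Dll1, Jag1 and Jag2) and 4 genes of the HES and HEY families (Hes1, Hes6, Hey1 and Hey2). They were taken by symbol from a count table of 55291 genes in single hair cells of the mouse cochlea, and all 10 symbols were found there. The cells came from C57BL/6 mice and were hand-picked for tdTomato fluorescence. The first group held 32 outer hair cells (OHCs) of wild type at postnatal day 30, genotype Slc26a5-CreER/+; Ai9/+. From Slc26a5-CreER/+; Rosa26Tbx2/+ mice at postnatal day 42 came 67 OHCs with ectopic Tbx2, a T-box factor of inner hair cells, which are labelled converted inner hair cells (cIHCs). All cells of both groups thus carried the Slc26a5-CreER allele, whose Cre acts in OHCs, and age and genotype differed together and cannot be told apart. The protocol text speaks of picked endogenous inner hair cells and iOHCs, but no title does, and the titles were followed. Because animals are not named in the labels, a group is a single sample here, and the differences below have neither a replicate check nor a test. Tbx2 itself had 3 counts in the OHCs (0.0124 CPM, the count scaled by the total so that levels of deep and shallow libraries compare) and reads in all 67 cIHCs, at 112.7 to 2643 CPM. At 10 CPM or more, reads of Xist were found in 4 OHCs and 55 cIHCs and reads of Y-linked genes in 24 and 12, with neither in 4 OHCs, so by these reads the sexes were also unequal between the groups.

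Notch signalling passes between touching cells. A ligand of the Delta or Jagged family on 1 cell binds a Notch receptor on its neighbour, proteases of the ADAM family and gamma-secretase cut the receptor, and its intracellular part joins the DNA-binding protein RBPJ and Mastermind-like coactivators to switch on genes such as Hes1, Hey1 and Hey2. In the developing cochlea, hair cells display ligands and the supporting cells around them hold receptors and HES and HEY repressors, which keeps supporting cells from becoming hair cells. HES and HEY proteins repress the hair cell factor Atoh1, whereas Hes6 is a family member known from differentiating hair cells and neurons that can counteract Hes1.

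In these cells, ligand reads were common and receptor reads were rare. At 1 or more reads, 25 of 32 OHCs (78.1%, exact Clopper-Pearson 95% interval 60.03 to 90.72) and 56 of 67 cIHCs (83.6%, 72.5 to 91.5) held reads of 1 or more of the 3 ligands. Reads of any of the 3 receptors were present in 3 OHCs (9.38%, 1.98 to 25.0) and 10 cIHCs (14.9%, 7.40 to 25.7). At a level of 10 CPM in the cell the receptors were left in 1 OHC and 3 cIHCs. Hes1, Hey1 or Hey2 reached 10 CPM in 1 OHC and 5 cIHCs. No member reached that level in 10 OHCs and 16 cIHCs. All intervals given here cover counting error only: amplified reads are not separate molecules, and animals may differ.

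**Figure D1:**
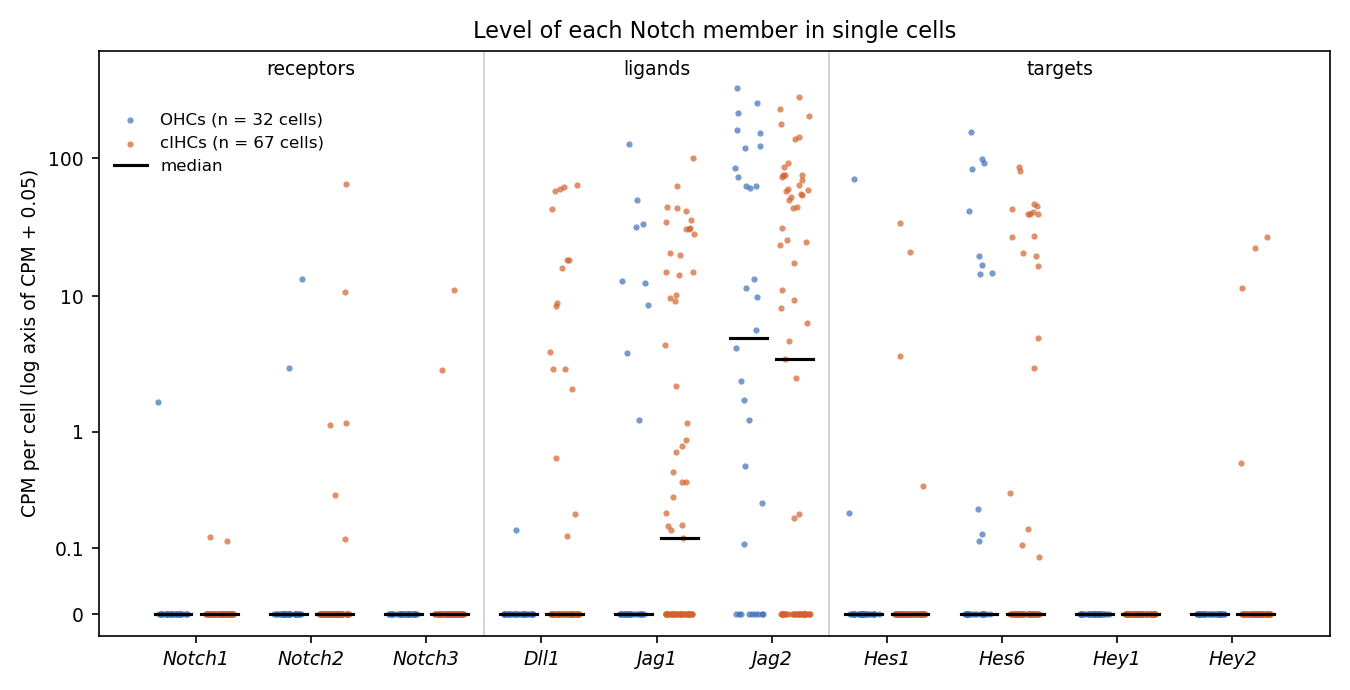
CPM of each member in every cell (1 point per cell, vertical log axis of CPM + 0.05, so that 0 can be drawn) for 32 OHCs and 67 cIHCs, with the median as a black bar. Receptor and Hey1 points lie almost wholly at 0, while Jag2 spreads from 0 to 322.5 CPM in OHCs and from 0 to 279.3 CPM in cIHCs.

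Total counts ran from 5656512 to 9287413 per OHC and from 4677682 to 13792672 per cIHC. The cIHCs had more genes with reads, a median of 8546 against 6068.5, so shares of cells with reads are not on equal footing and are also given at 10 CPM or after thinning each cell to 5770000 reads. The labelled cell type was checked against 8 hair cell markers, all of which had reads in both groups, with summed levels of 5194 to 10170 CPM in OHCs and 969.4 to 12570 CPM in cIHCs. The 7 OHC markers summed to a median of 51170 CPM in OHCs and 338.5 CPM in cIHCs. Of 7 inner hair cell markers, 3 were at 0 in OHCs (Shtn1, Rprm and Slc7a14), and the list summed to a median of 14.3 CPM there and 3170 CPM in cIHCs. Supporting cells, which express Notch receptors and Hes1 in development, were followed with 10 markers. Their summed level reached 10 CPM in 5 OHCs and 10 cIHCs, ranged up to 1654 CPM and 873.4 CPM, and had medians of 0.0539 and 0 CPM. Slc1a3 was at 0 in OHCs, and Prox1 and Epyc were at 0 in cIHCs. The 8 macrophage and blood markers summed to 3.23 pooled CPM in OHCs and 52.8 in cIHCs and reached 10 CPM in 2 OHCs and 32 cIHCs. Of the cIHC sum, C1qb gave 48.2 CPM, with reads in 35 cells, while C1qa, Tyrobp and Lyz2 were at 0 there, and C1qa and C1qb were at 0 in OHCs.

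Of the 10 members, 6 passed a minimum of 1 pooled CPM (the counts of all cells of a group over their summed total) in 1 or both groups. Among these 6, 2 were at least 2-fold higher in cIHCs (Dll1 and Notch2) and 1 was at least 2-fold lower (Hes1), with 3 within 2-fold (Jag1, Jag2 and Hes6). Over all 16005 genes with this minimum, 34% were at least 2-fold higher and 19.7% at least 2-fold lower, so the members' shares of 33.3% and 16.7% lay near the background. The median log2 ratio of cIHC over OHC was -0.26 over the 6 members and 0.31 over all genes. The ratio of Hes1 rests on 1 OHC, and that of Notch2 mostly on 1 cell in each group, as their values show. In GRCm38, the assembly behind mm10, GENCODE M21 places Dll1 at chr17:15367354-15376872, Jag1 at chr2:137081456-137116644, Jag2 at chr12:112907819-112929776 and Hes6 at chr1:91411483-91414038, all on the minus strand; counts are over whole genes.

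RefSeq promoters of the GRCm38.p6 build were matched for 8 of the 10 members by symbol, 10 start sites in all; Hes1 and Hey1 had no entry. The 250 bases before each start were searched on both strands for TGGGAA (bound by RBPJ), AGGTGT (the core of the T-box half-site), CACNAG (the N-box of HES proteins) and CANNTG (the E-box), of which the last can overlap AGGTGT. Dll1 and Hey2 are shown because their reads came almost wholly from cIHCs, and Hes6 as a target with reads in both groups. Notch3, also without OHC reads, had its cIHC reads in 2 cells; its promoter, with 2 N-box matches, is not printed. Each sequence runs 5′ to 3′ towards the start site on the minus strand, and capitals mark matches to any of these letters. The Hey2 sequence stops 18 bases short of the start, where a GENCODE M21 gene begins.
Dll1, chr17:15376933-15377182: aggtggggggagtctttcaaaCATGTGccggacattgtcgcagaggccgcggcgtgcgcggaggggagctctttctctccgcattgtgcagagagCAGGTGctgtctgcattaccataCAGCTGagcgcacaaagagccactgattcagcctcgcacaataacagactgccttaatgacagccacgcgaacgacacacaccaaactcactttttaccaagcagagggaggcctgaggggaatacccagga
Hey2, chr10:30842802-30843033: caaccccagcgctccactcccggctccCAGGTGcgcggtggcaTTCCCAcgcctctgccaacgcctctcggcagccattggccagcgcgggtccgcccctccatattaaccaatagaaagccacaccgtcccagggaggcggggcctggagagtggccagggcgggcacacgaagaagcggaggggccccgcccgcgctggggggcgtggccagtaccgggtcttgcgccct
Hes6, chr1:91414039-91414288: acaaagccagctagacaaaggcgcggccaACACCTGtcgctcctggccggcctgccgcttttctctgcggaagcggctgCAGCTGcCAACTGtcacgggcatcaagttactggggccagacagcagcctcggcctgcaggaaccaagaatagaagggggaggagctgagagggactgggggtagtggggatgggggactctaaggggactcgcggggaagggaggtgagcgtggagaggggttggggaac
The capitals in Dll1 are 3 E-boxes, 229, 155 and 132 bases before the start. Those in Hey2 are an E-box at 223 bases and the letters TTCCCA, the reverse complement of TGGGAA, at 207 bases. In Hes6 the letters ACACCT, the reverse complement of AGGTGT, lie at 221 bases and overlap an E-box at 220 bases, and further E-boxes lie at 171 and 164 bases. Hey2 was the only member with a TGGGAA match and Hes6 the only one with an AGGTGT match in these 10 windows. Over all 32851 RefSeq promoters the same windows held TGGGAA in 21.6%, AGGTGT in 11.8%, CACNAG in 36.7% and CANNTG in 66.2%. A match describes the letters and is not a measured site.

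Levels of the 3 receptor members were low, at up to 1.30 pooled CPM (Notch2 in cIHCs), though not below those of every other member. Notch4, a receptor outside the 10 members, stood at 1.77 and 2.17 pooled CPM, with reads in 3 OHCs and 8 cIHCs. Notch1, the receptor best known for setting hair cell number, had 12 counts in OHCs, all in 1 cell (OHC 21, 1.66 CPM), and 2 counts in cIHCs, 1 each in 2 cells. The pooled levels were 0.0496 and 0.00368 CPM, and the log2 ratio of these few counts was -3.75 (exact conditional binomial 95% interval -6.96 to -1.59). No cell of either group thus held more than a trace of Notch1.

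Notch2, a second receptor of the family, had reads in 2 OHCs, at 13.4 and 3.01 CPM. It had reads in 6 cIHCs, at 65.4, 10.6, 1.15, 1.12, 0.314 and 0.125 CPM. The other 30 OHCs and 61 cIHCs had none, and the groups overlapped. Pooled, Notch2 stood at 0.417 CPM (exact Poisson 95% interval 0.340 to 0.507) in OHCs and 1.30 CPM (1.21 to 1.40) in cIHCs, a log2 ratio of 1.64 (1.34 to 1.96). The top OHC gave 83.2% of its group's counts and the top cIHC 84.2%. The ratio was -0.93 among cells with Xist reads and -1.32 among cells with Y-linked reads, so the higher level in cIHCs did not hold within either class. These class values rest on single cells too: the Xist OHC level came from OHC 22 alone, and the Y-linked value sets 17 counts of 1 OHC against reads of 1 cIHC that were raised to 3 counts. The cIHC with 65.4 CPM of Notch2 (cIHC 62) had a supporting cell marker sum of 169.8 CPM and a hair cell marker sum of 1801 CPM, against a median of 7612 CPM over cIHCs. The part of these marker levels in the Notch2 result was not tested.

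Notch3, a receptor known mainly from the muscle cells and pericytes of vessels, had no read in the 32 OHCs, which by a limit of 3 cells allows 9.38% of cells with reads (exact upper limit 10.9%). In cIHCs it had 133 counts, in cIHC 67 at 11.1 CPM and in cIHC 33 at 2.90 CPM. Against a floor of 3 counts over the OHC group, the log2 ratio was at least 4.30. Without the highest cell the cIHCs held 22 counts. Of 6 pericyte and smooth muscle markers, Abcc9 and Acta2 were at 0 in both groups, Rgs5 was at 0 in OHCs and Kcnj8 in cIHCs. Pdgfrb stood at 0.00826 and 1.10 CPM and Myh11 at 0.00413 and 0.971 CPM, and the pooled sum went from 0.0165 to 2.08 CPM, higher in cIHCs as Notch3 was. The sum reached 10 CPM in 0 OHCs and 2 cIHCs. The 1 cIHC at 10 CPM or more of Notch3 was not among those 2. It had a macrophage and blood marker sum of 165.0 CPM, from reads of 1 of the 8 markers.

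**Figure D2:**
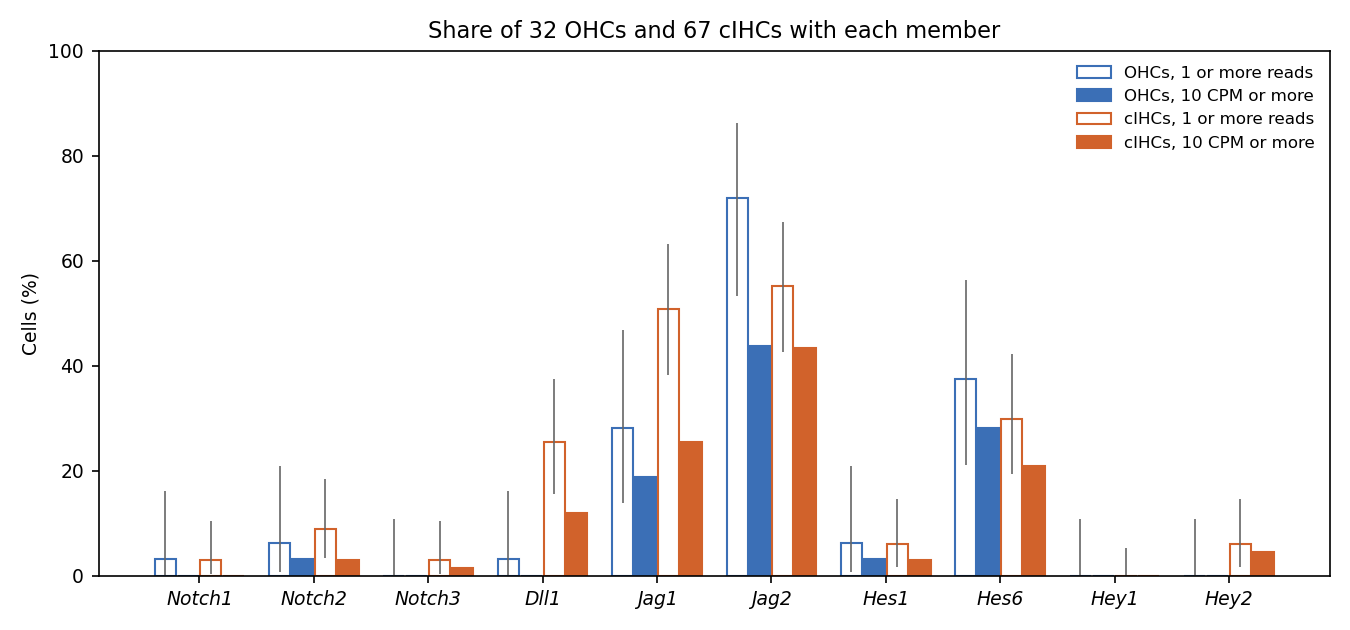
Share of cells (%) with 1 or more reads (open bars, with exact 95% intervals) and at 10 CPM or more (filled bars) for each member, in 32 OHCs and 67 cIHCs. Jag2 is the member found in most cells of both groups, and Dll1 has reads in 25.4% of cIHCs against 3.13% of OHCs.

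Jag2, a Jagged ligand made by hair cells of the developing cochlea, was the member with reads in most cells. Levels in OHCs ran from 0 to 322.5 CPM with a median of 4.91 CPM, and 23 of 32 cells (71.9%, 53.3 to 86.3) had reads. Levels in cIHCs ran from 0 to 279.3 CPM with a median of 3.46 CPM, and 37 of 67 cells (55.2%, 42.6 to 67.4) had reads. The groups overlapped over nearly their whole ranges: in 36.3% of 2144 pairs of 1 cIHC and 1 OHC the cIHC was higher, and in 51.1% it was lower. At 10 CPM or more, 43.8% of OHCs and 43.3% of cIHCs were left.

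Pooled Jag2 was 51.7 CPM (50.8 to 52.6) in OHCs and 33.7 CPM (33.3 to 34.2) in cIHCs, a log2 ratio of -0.61 (-0.65 to -0.58), or -0.92 once the all-gene median is subtracted. Within the classes of cells by sex-linked reads, the pooled level was not lower in cIHCs. Among cells with Y-linked reads the 24 OHCs stood at 55.4 CPM and the 12 cIHCs at 57.5 CPM, and among cells with Xist reads the 4 OHCs stood at 18.1 CPM and the 55 cIHCs at 29.6 CPM. With the all-gene median of each class subtracted, the Jag2 ratio was -0.12 in the Y-linked class, and in the Xist class it was -0.94 or 0.30, depending on whether that median was taken over genes with at least 1 or 10 pooled CPM. A smaller share of cIHCs than of OHCs had Jag2 reads, although the cIHCs had more genes with reads. In the Y-linked class, 18 of 24 OHCs and 10 of 12 cIHCs had Jag2 reads. In the Xist class it was 2 of 4 OHCs and 27 of 55 cIHCs. The lower share was thus not seen in the Y-linked class, and the shares were close in the Xist class. Among genes within 1.25-fold of the Jag2 level, the median share of cells with reads was 56.2% in OHCs and 67.2% in cIHCs. Jag2 had 71.9% and 55.2%.

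Within the cIHCs, Jag2 tended to be lower in cells with more Tbx2. The Spearman coefficient of Jag2 with Tbx2 was -0.44 over 67 cells. Of 9076 genes averaging 10 CPM or more, 1.17% had a coefficient with Tbx2 this low or lower, and the median was 0.04. The 29 cIHCs at 10 CPM or more of Jag2 had a median Tbx2 level of 425.1 CPM and a highest of 1114 CPM. The 30 cIHCs without a Jag2 read had a median of 744.9 CPM and a highest of 2643 CPM. The 2 sets of cells overlapped, since their lowest Tbx2 levels were 112.7 and 117.7 CPM. Within the 55 cIHCs with Xist reads the Spearman coefficient was -0.48, and within the 12 with Y-linked reads it was -0.23. Total counts moved with both genes, with a coefficient of -0.33 for Jag2 and 0.32 for Tbx2, and their part in the relation was not tested. For Jag1, Dll1 and Hes6, the coefficient with Tbx2 was 0.20, 0.04 and 0.10, smaller in size than for Jag2. No coefficient was tested. The Jag2 relation was picked after its values were seen, so its rank among the 9076 genes is not support for it. The coefficients of Jag1, Dll1 and Hes6 are not read as a finding.

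**Figure D3:**
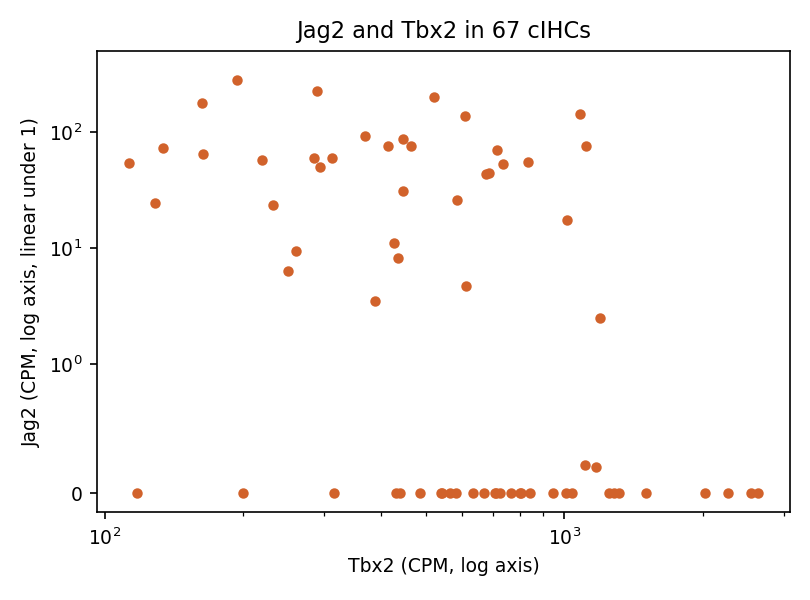
Jag2 level (vertical axis, CPM, log above 1 and linear below) against Tbx2 level (horizontal log axis, CPM) in 67 cIHCs, 1 point per cell. Cells at 10 CPM or more of Jag2 reach at most 1114 CPM of Tbx2, while cells without Jag2 reads extend to 2643 CPM.

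Jag1, the Jagged ligand that marks the prosensory region early in cochlear development and later the supporting cells, had reads in 9 of 32 OHCs and 34 of 67 cIHCs. OHC levels ran from 0 to 126.3 CPM with a median of 0, and cIHC levels from 0 to 99.6 CPM with a median of 0.128 CPM. Pooled, the groups were nearly level at 8.06 CPM (7.70 to 8.42) and 8.61 CPM (8.37 to 8.86), a log2 ratio of 0.10 (0.02 to 0.17). Its sign turned with TMM scaling (-0.10), with median-of-ratios scaling (-0.11), after thinning (-0.10), without the 10% of cells with the fewest genes (-0.10) and relative to the median of all genes (-0.21). The share of cells with reads differed more than the level did, at 28.1% (13.75 to 46.75) of OHCs and 50.7% (38.2 to 63.2) of cIHCs, or 31.03% and 46.97% after thinning. At 10 CPM or more the shares were 18.8% and 25.4%. Among genes within 1.25-fold of its level, the median share of cells with reads was 15.6% in OHCs and 29.9% in cIHCs. A higher share in cIHCs was thus not particular to Jag1. A single OHC (OHC 14) held 44.2% of the OHC counts. Of the 6 OHCs at 10 CPM or more of Jag1, 3 also had a supporting cell marker sum of 10 CPM or more, against 2 of the other 26, while in cIHCs it was 2 of 17 and 8 of the other 50. Without the cells with that marker sum, the log2 ratio of Jag1 was 0.38, and among cells with Y-linked reads it was 0.89.

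Dll1, a Delta ligand that nascent hair cells carry in the embryo, had 1 count in the 32 OHCs and 2980 counts in the cIHCs. Its reads came from 17 of 67 cIHCs (25.4%, 15.5 to 37.5), or 22.7% after thinning, with a median of 0 and a highest level of 64.1 CPM. In 8 cIHCs it reached 10 CPM, and these cells had a median of 50.6 CPM. The OHC with a read stood at 0.152 CPM. All but 1 of the cIHC values above 0 lay above it, and the cIHC was higher in 25.3% of pairs and equal in 72.3%, because most cells of both groups had no read. The pooled levels were 0.00413 and 5.48 CPM, a log2 ratio of 10.37 (7.89 to 15.68) from a single OHC count. The most abundant cell held 18.7% of the cIHC counts, so the level did not rest on 1 library. Among 1013 genes within 1.25-fold of its level in cIHCs, the median share of cells with reads was 20.9%. Among the 24 OHCs and 12 cIHCs with Y-linked reads Dll1 stood at 0.00548 and 2.00 CPM, and among the 4 and 55 with Xist reads at 0 and 6.08 CPM. Of the 8 cIHCs at 10 CPM or more, 3 had a supporting cell marker sum of 10 CPM or more, against 7 of the other 59. A long noncoding gene on the other strand, A930024N18Rik, covers 20.6% of the exon bases of Dll1 in the GENCODE M21 annotation; its own counts were not analysed here. The strand setting of the counting is not given in the sources used here, so reads over the shared bases cannot be told apart.

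How many cells combined ligands depended on the threshold. At 1 or more reads, 6 OHCs and 22 cIHCs held 2 of the 3 ligands, and 1 OHC and 5 cIHCs held all 3. At 10 CPM or more, 14 OHCs and 36 cIHCs held exactly 1 of the 3 ligands, 3 OHCs and 9 cIHCs held 2, and no cell held all 3. Jag1 and Jag2 were together in 3 OHCs and 6 cIHCs, Dll1 and Jag2 in 2 cIHCs, and Dll1 and Jag1 in 1 cIHC. The Spearman coefficient between the ligands over the 67 cIHCs was -0.09 for Jag1 with Jag2, 0.04 for Jag1 with Dll1 and 0.05 for Jag2 with Dll1. A ligand and a receptor were together at 10 CPM in 1 OHC and 2 cIHCs.

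**Figure D4:**
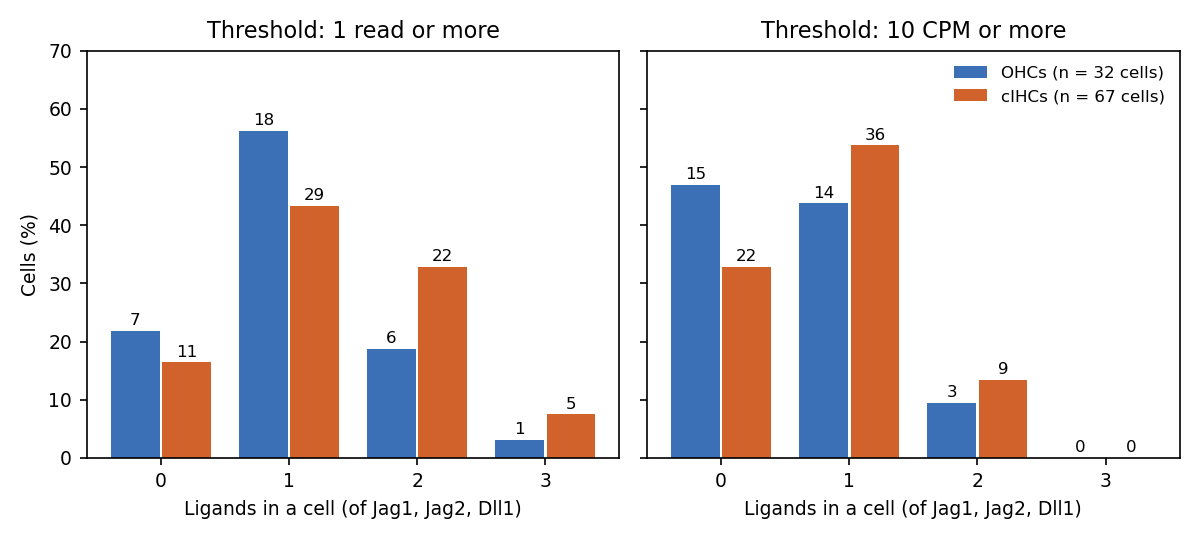
Share of cells (%) that hold 0, 1, 2 or 3 of the ligands Jag1, Jag2 and Dll1, at 1 or more reads (left) and at 10 CPM or more (right), in 32 OHCs and 67 cIHCs, with the number of cells above each bar. At 10 CPM or more, 1 ligand is the largest class of cIHCs (36 cells) and no ligand that of OHCs (15 cells).

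Among the target genes, Hes1, the repressor most widely used as a readout of Notch activity, had reads in 2 OHCs, at 70.9 and 0.221 CPM. It had reads in 4 cIHCs, at 33.7, 20.9, 3.65 and 0.375 CPM. The other 30 OHCs and 63 cIHCs had none. The pooled levels were 1.84 CPM (1.68 to 2.02) and 0.891 CPM (0.814 to 0.974), a log2 ratio of -1.05 (-1.24 to -0.86), but OHC 22 held 99.6% of the OHC counts. Without it the OHCs had 2 counts. The same OHC 22 held 83.2% of the OHC counts of Notch2, had the highest supporting cell marker sum of all OHCs (1654 CPM, 4 of 10 markers with reads) and a fibrocyte marker sum of 1315 CPM. The cIHC with the most Hes1 (cIHC 49) had the highest supporting cell marker sum of all cIHCs (873.4 CPM, 4 of 10 markers) and a hair cell marker sum of 1537 CPM. The second cIHC at 10 CPM or more (cIHC 22) had 0 CPM of the supporting cell markers and 63.5 CPM of the fibrocyte markers. The part of these marker levels in the Hes1 result was not tested.

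Hey1 had no read in any cell, which by the same limit of 3 cells allows 9.38% of OHCs and 4.48% of cIHCs (exact upper limits 10.9% and 5.36%). Hey2, which like Hey1 encodes a repressor of the HEY family and is known from pillar cells of the cochlea, had no read in OHCs and 521 counts in cIHCs. Its promoter was the one with a TGGGAA match. Reads came from 4 cIHCs, at 26.7, 22.4, 11.4 and 0.576 CPM, a pooled level of 0.958 CPM (0.877 to 1.04). The log2 ratio was at least 6.27 against the floor of 3 OHC counts. None of the 3 cIHCs at 10 CPM or more of Hey2 had a supporting cell marker sum of 10 CPM. All 3 had a macrophage and blood marker sum of that level, against 29 of the other 64. In each of the 3 that sum came from 1 of the 8 markers. The part of these markers in the result was not tested. All 12 cIHCs with Y-linked reads had no Hey2 read, so its reads came from cells with Xist reads alone. With Hey2 reads in only 4 cells and Xist reads in 55 of the 67 cIHCs, this absence does not show a difference by sex.

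Hes6 was the target gene with reads in most cells. OHC levels ran from 0 to 155.3 CPM and cIHC levels from 0 to 86.9 CPM, both with a median of 0. Reads were present in 12 of 32 OHCs (37.5%, 21.1 to 56.3) and 20 of 67 cIHCs (29.9%, 19.3 to 42.3), and 9 OHCs and 14 cIHCs reached 10 CPM. The groups overlapped throughout, with the cIHC higher in 23.9% of pairs and lower in 32.3%. Pooled Hes6 was 17.6 CPM (17.1 to 18.1) in OHCs and 9.20 CPM (8.95 to 9.46) in cIHCs, a log2 ratio of -0.94 (-0.99 to -0.88). The ratio stayed between -1.31 and -0.62 under all alternatives that gave a value. It thus lay on either side of the line for 2-fold lower, without a change of sign. Of the OHC counts, 25.9% came from a single cell, and 13.5% of the cIHC counts did. A macrophage and blood marker sum of 10 CPM or more was found in 11 of the 14 cIHCs at 10 CPM or more of Hes6, against 21 of the other 53, and in 0 of the 9 such OHCs. In cIHCs C1qb alone gave 48.2 of the 52.8 pooled CPM of this sum. The part of this sum in the Hes6 result was not tested.

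Levels of different genes were set side by side per kilobase of exon. In OHCs the order of pooled CPM per kilobase was Hes6 (9.73), Jag2 (7.42), Jag1 (1.38), Hes1 (0.905) and Notch2 (0.0387), with the other 5 below. In cIHCs it was Hes6 (5.09), Jag2 (4.85), Jag1 (1.48), Dll1 (1.30), Hes1 (0.438), Hey2 (0.209) and Notch2 (0.121), with the other 3 below. The mean ± SD over 67 cIHCs was 4.80 ± 10.6 for Hes6 and 5.19 ± 8.46 for Jag2, which turns their order. For Jag1 and Dll1 it was 1.56 ± 3.12 and 1.31 ± 3.67. The SD describes the spread between cells, and no difference between genes was tested.

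The 53 other genes of a Notch pathway list gave the surroundings of the members. Of these, 41 passed 1 pooled CPM, 10 were at least 2-fold higher in cIHCs (24.4%), 7 at least 2-fold lower (17.1%) and 24 within 2-fold, with a median log2 ratio of 0.02. At this minimum both shares lay below those over all genes, 34% and 19.7%, with no test of that difference. At 10 pooled CPM the share at least 2-fold lower was above that of all genes, 19.4% against 14.3%. By role, 4 of 9 proteases of receptor cleavage were higher and 1 lower, 0 of 9 nuclear complex genes were higher and 2 lower, and 1 of 9 endocytosis and turnover genes was higher and 1 lower. Rbpj, the DNA-binding protein of the pathway, stood at 19.8 and 13.3 CPM, a log2 ratio of -0.57 (-0.62 to -0.52), with reads in 34.4% of OHCs and 68.7% of cIHCs. Without the top cell of each group the Rbpj ratio was -0.14. Because the cIHCs had more genes with reads, its shares of cells are not on equal footing.

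Of the pathway genes, 34 reached 10 pooled CPM with reads in 25% or more of the cells where they were higher, and the highest ratio was that of Dlk2, a noncanonical Delta-like gene. Dlk2 had no read in 32 OHCs and 25.2 CPM (24.8 to 25.6) in cIHCs, with reads in 33 of 67 cells, a log2 ratio of at least 10.99. Abcc10 on the other strand covers 2.41% of its exon bases, with 13.5 CPM in OHCs against 5.90 CPM in cIHCs. Tle2, a Groucho-type corepressor that HES proteins recruit, went from 11.7 to 65.3 CPM, a log2 ratio of 2.48 (2.42 to 2.53), with the cIHC higher in 79.5% of pairs. Pofut1, which adds fucose to Notch receptors, stood at 2.73 and 14.5 CPM, a ratio of 2.41 (2.29 to 2.52), and 87.0% of the OHC counts lay in 1 cell. With the top cell of each group left out, the Pofut1 ratio was 5.15.

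The gamma-secretase genes Psen2 and Aph1c had log2 ratios of 1.51 (1.46 to 1.57) and 1.66 (1.62 to 1.71). Aph1c is a near copy of Aph1b, and the counting could split reads between them. Of the proteases that cut Notch before gamma-secretase, Adam17 was higher in cIHCs at 11.4 against 2.10 CPM and Adam10 lower at 9.10 against 27.2 CPM, log2 ratios of 2.44 (2.31 to 2.57) and -1.58 (-1.63 to -1.53). Adam17 shares 4.35% of its exon bases with Iah1 on the other strand, itself at 11.4 CPM in OHCs against 60.4 CPM in cIHCs. Of the OHC counts of Adam17, 1 OHC held 74.4%. Without the top cell of each group the Adam17 ratio was 4.14. Adam10 had reads in more cIHCs (70.1%) than OHCs (46.9%) in spite of its lower pooled level. Here too the shares are not on equal footing, since the cIHCs had more genes with reads.

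The lowest ratios were those of Maml3 and Dll4. Maml3, a Mastermind-like coactivator, stood at 16.6 and 1.30 CPM, a log2 ratio of -3.67 (-3.78 to -3.55), and its relative Maml2 at 90.3 and 17.5 CPM, a ratio of -2.37 (-2.41 to -2.34). Maml2 had reads in 78.1% of OHCs and 52.2% of cIHCs. Dll4, a Delta ligand known from vessels, stood at 24.6 and 1.94 CPM, a ratio of -3.67 (-3.76 to -3.57), with reads in 13 of 32 OHCs and 7 of 67 cIHCs. The top cell of each group held 44.1% and 49.6% of the Maml3 counts and 42.6% and 60.3% of the Dll4 counts. Without these cells Maml3 stood at 9.62 and 0.664 CPM (ratio -3.86) and Dll4 at 14.5 and 0.780 CPM (ratio -4.22). Gm14207 on the other strand covers 5.56% of the exon bases of Dll4 and itself stood at 31.1 CPM in OHCs against 0.241 CPM in cIHCs. Reads over the shared bases cannot be told apart. Of the 8 endothelial markers, Cdh5, Kdr and Tie1 were at 0 in OHCs, and Egfl7 gave 74.9 of their summed 83.3 CPM there and 56.4 CPM in cIHCs. Like Dll4, Pecam1 (6.81 against 0.00368 CPM), Cldn5 (1.07 against 0) and Flt1 (0.512 against 0.0239) were higher in OHCs. A single cell held 99.1%, 99.2% and 98.4% of their OHC counts, so these levels do not describe the OHCs as a group. The part of these markers in the Dll4 result was not tested. Neurl1a, which helps internalise ligands, had a ratio of -1.98 (-2.02 to -1.93), and Heyl, a HEY family gene, -1.81 (-1.88 to -1.74).

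**Figure D5:**
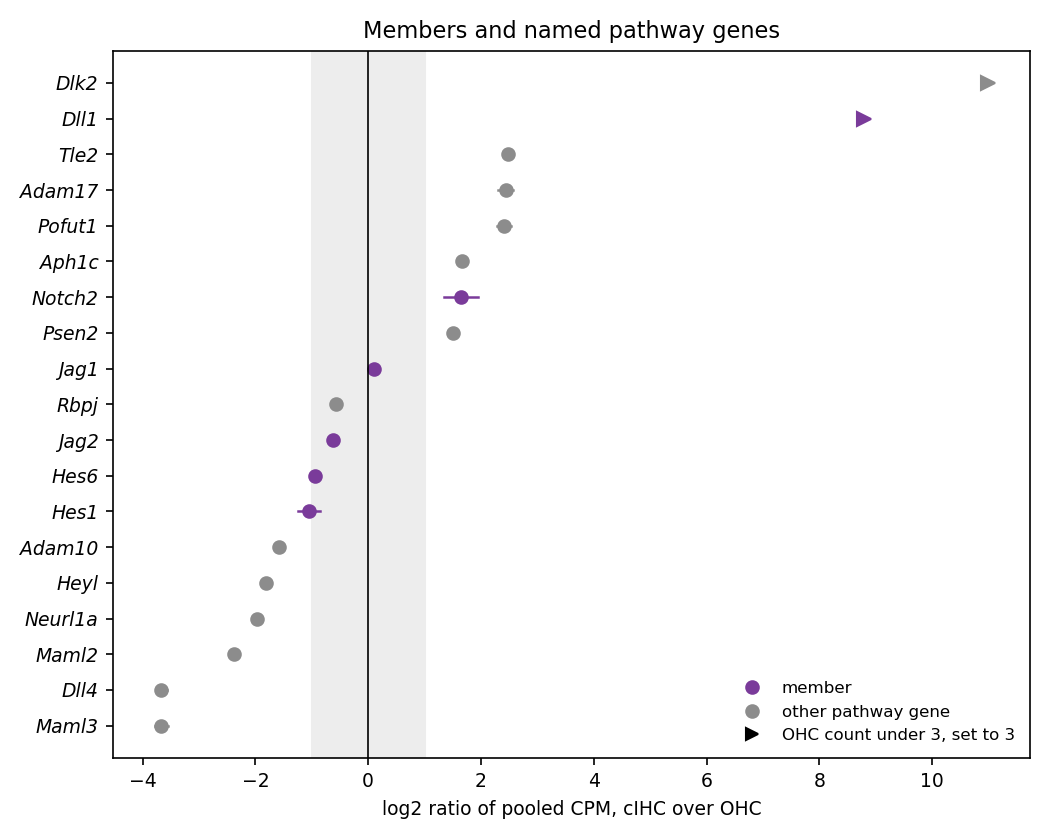
Log2 ratio of pooled CPM, cIHC over OHC (horizontal axis), for the 6 members with at least 1 pooled CPM and 13 other pathway genes, with exact 95% counting intervals and the range within 2-fold shaded. Triangles mark genes with under 3 OHC counts, set to 3; Dlk2 and Dll1 lie farthest to the right and Maml3 and Dll4 farthest to the left.

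The genes whose levels followed a member most closely over cells were looked up for members whose reads reached 50% or more of a group's cells, by the Spearman coefficient of log2(CPM + 1). For Jag2 in the 32 OHCs they were Avl9 (0.65), Mindy3 (0.64) and Sorbs3 (0.59), among 8389 genes. For Jag2 in the 67 cIHCs they were Slc1a5 (0.59), Atp11a (0.58) and Ube2ql1 (0.57), and for Jag1 in cIHCs Gm5559 (0.57), Copg2 (0.52) and Cript (0.52), among 9076 and 9077 genes. The 3 genes nearest to Jag2 differed between the groups. All these cells' values share library depth, and each coefficient is among the highest of all genes compared.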

How the data were processed

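The authors deposited 1 table of whole-number read counts for 55291 gene symbols and 99 cells, made from Smart-Seq HT full-length cDNA libraries per the labels' protocols. HISAT2 2.2.1, StringTie 2.2.1, featureCounts 2.0.1 and the mm10 build are named in the submitters' processing notes; annotation, strand setting and filters are not given in the sources used here. Cells were assigned to groups by title, each cell being 1 library, and the table had 0 columns of no sample and 0 identical pairs of cells within a group. OHCs of an earlier study were not analysed here.

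Counts were summed per group and divided by the summed total (pooled CPM). Sums under 3 counts were set to 3 over the group for list counts, medians and bounds, and genes at or under 3 counts in both groups had no ratio. No test was made. Shares were recomputed in 29 OHCs and 66 cIHCs thinned to 5770000 reads. Doublets were not called, because cells were picked singly. Exon lengths (kb) and overlaps came from GENCODE M21. The members and lists were chosen with earlier results of these data known. Named genes are the members, Rbpj and the 3 genes of highest Spearman coefficient per member. To these come the 6 highest and 6 lowest ratios among pathway genes at 10 CPM and 25% of cells. Iah1, Gm14207, Abcc10, Aph1b and A930024N18Rik were named after their overlap or copy was seen. Notch4, the marker genes singled out and the Tbx2 relation were named after their values were seen. On counts simulated for 12972 genes of this comparison with 200 changed, 97% of the changed genes came back within 1 log2 unit. Of the changed genes 92.5% were called in the right direction, and 2.98% of unchanged genes passed 2-fold. The simulation gave every gene the same spread over cells and did not copy genes whose counts lie in few cells. Its rates thus do not carry over to such genes, Notch2 and Hes1 among them. Software was Python 3.11.15, numpy 2.4.6, pandas 2.3.3, scipy 1.17.1, matplotlib 3.10.9 and edgeR 4.0.16 in R 4.3.3.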

Additional observations from a re-analysis of the deposited data

How the results depend on the processing

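No paired analysis was possible because title numbers only number single cells and no result is a test. The alternatives were other scalings, means or medians over cells, subsets of cells, thinning and other minimum levels; leaving out all cells with supporting, pericyte, fibrocyte or glial markers (16 OHCs and 33 cIHCs remained) was added after seeing the data. TMM and median-of-ratios scaling moved the median of all genes by -0.21 and -0.22. Where a cause is not evident from fewer genes or cells, the cause was not tested.

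The 2 of 6 members at least 2-fold higher were 0 of 1 with the median of CPM per cell and 0 of 2 with at least 10 pooled CPM. Over all genes these settings gave 44.3% and 26.3%. The count was 1 of 4 without the highest cell of each gene and 1 of 4 among cells with Y-linked reads. All genes gave 43.2% and 33.6% there. With no minimum it was 4 of 9, against 42% of all genes. Leaving out the 10 most abundant genes, or the cells with the fewest genes, gave 3 of 7, against 33.1% and 34.8%. The 1 of 6 members at least 2-fold lower became 2 of 6 with TMM, median-of-ratios scaling and thinning, against 22.8%, 23% and 19.7% of all genes. It became 2 of 7 with the 10 most abundant genes left out of the totals and with cells with Xist reads. All genes gave 21% and 17.2% there. It was also 2 of 7 without the cells with the fewest genes (all genes 19.9%) and 2 of 9 with no minimum (18.8%). The count was 0 of 1 by the median over cells (all genes 10%) and 0 of 4 without the highest cells (13%). It was 0 of 5 without cells with supporting cell markers (20%) and 0 of 4 among cells with Y-linked reads (26.7%). With at least 10 pooled CPM it was 0 of 2 (14.3%). With so few members, none of these counts is read as a result about the members.

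The members' median of -0.26 became -0.45 with TMM, -0.46 with median-of-ratios scaling, 0.0179 with the most abundant genes left out of the totals, -0.50 with the median of CPM per cell, 0.0291 without the highest cells, 0.38 without cells with supporting cell markers and 0.38 without those with any of the 4 marker lists. It was 0.11 among cells with Xist reads, 0.47 among cells with Y-linked reads, -0.10 without cells with the fewest genes, -0.19 after thinning, -0.77 at 10 pooled CPM and 0.10 with no minimum. The sign of this median thus depends on the setting.

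Of the other pathway genes, the 10 higher of 41 became 17 of 42 among cells with Xist reads (40.5%, against 55% of all genes) and 17 of 48 with no minimum (35.4% against 42%). The 7 lower were 3 of 16 by the median over cells (18.8% against 10%) and 11 of 39 among cells with Y-linked reads (28.2% against 26.7%). By the median over cells 10 of the 16 were higher, 62.5% against 44.3% of all genes. The lower share was 17.9% against 13% of all genes without the highest cells, and 19.4% against 14.3% at 10 pooled CPM. Whether the pathway shares lay above or below those of all genes thus depended on the setting. Hes1 turned from -1.05 to 4.74 without the highest cells, 4.74 without cells with supporting cell markers and 2.00 without cells with any of the 4 lists; in all 3 settings OHC 22 was left out and the OHC sum set to 3 counts. Notch2 turned from 1.64 to -0.93 among cells with Xist reads and -1.32 among cells with Y-linked reads. Dll1 stayed between 5.87 and 8.80 with its OHC sum set to 3 counts. Jag2 was negative except among cells with Xist reads (0.71) and Y-linked reads (0.05). Under 1 pooled CPM in both groups, the reads of Notch1, Notch3 and Hey2 came from 1 to 4 cells of a group with any, which limits what their ratios show.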
